A study of Mus musculus with 31 samples.

Results

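The 9 genes that carry dopamine from synthesis to breakdown were followed through total RNA sequencing of mouse brain. The animals of 1 group had been exposed during development to the insecticide deltamethrin, a pyrethroid, whose class slows the closing of sodium channels in nerve membranes. They were chosen by symbol from a table of 48795 genes and fall into 3 roles: 4 midbrain neuron genes (Th, Ddc, Slc6a3 and Slc18a2), 3 receptors (Drd1, Drd2 and Drd3) and 2 degrading enzymes (Maoa and Maob). All 9 were found once each and all 9 passed the count filter, so each was tested. The 31 libraries came from aliquots of hemibrain homogenate, 13 labelled control and 18 labelled deltamethrin. The labels give the agent and the tissue and no strain, genotype, sex, litter, age, dose, time of collection or batch, so they do not say what else the 2 groups share. Nothing in the labels says that the samples are separate animals, and the p-values measure the spread between these samples.

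Dopamine is made in a small number of neurons, most of them in the midbrain, and acts at a distance on the striatum, cortex and other targets. Tyrosine hydroxylase (Th) makes L-DOPA from tyrosine in the rate-limiting step, and aromatic L-amino acid decarboxylase (Ddc) turns L-DOPA into dopamine. The vesicular transporter (Slc18a2, also called VMAT2) loads dopamine and the other monoamines into vesicles, and the plasma membrane transporter (Slc6a3, also called DAT) takes dopamine back up after release. Th is shared with noradrenaline neurons, Ddc and Slc18a2 are shared with noradrenaline and serotonin neurons, and Slc6a3 is largely restricted to dopamine neurons. The receptors Drd1 and Drd2 mark the direct and indirect pathway projection neurons of the striatum, while Drd2 is also an autoreceptor on dopamine neurons. Monoamine oxidases A and B (Maoa and Maob) break dopamine down on the outer mitochondrial membrane. Maob is found mostly in astrocytes and serotonin neurons. In whole tissue, fewer cells of a type and less RNA per cell cannot be told apart.

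The libraries held from 17570311 to 38680621 counts. Mitochondrial ribosomal RNA (mt-Rnr1 and mt-Rnr2) took from 7.32% of counts in deltamethrin replicate 11 to 40.2% in control replicate 2, which also had the lowest total. Every library had at least 388 counts of the Y-linked gene Ddx3y and at most 6 of Xist, as male tissue does. No 2 libraries agreed within sampling noise (the smallest chi-square per degree of freedom over all pairs was 6.35).

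The stretches just before the start sites of Th, Ddc, Slc6a3, Drd1 and Drd2, which varied together within their roles, are shown beside the counts. That of Slc18a2, for which no such correlation passed, is shown with them. Maoa and Maob also varied together, but the stretch of Maoa is not printed and Maob had no promoter entry. Each run is the last 120 bases before a RefSeq start site (GRCm38.p6), written 5′ to 3′ along the gene. Capitals mark matches, on either strand, to the cAMP response element TGACGTCA (CRE), the NBRE of NR4A nuclear receptors AAAGGTCA, the TATA box TATAAA, the GC box GGGCGG or the CCAAT box CCAAT.
Th (chr7:142899996-142900115, minus strand): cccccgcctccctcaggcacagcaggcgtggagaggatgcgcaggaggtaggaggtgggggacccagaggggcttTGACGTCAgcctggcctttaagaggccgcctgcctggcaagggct
Ddc, upstream start site (chr11:11898145-11898264, minus strand): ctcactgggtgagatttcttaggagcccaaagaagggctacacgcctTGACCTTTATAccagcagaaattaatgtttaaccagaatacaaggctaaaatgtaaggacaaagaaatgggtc
Ddc, downstream start site (chr11:11890409-11890528, minus strand): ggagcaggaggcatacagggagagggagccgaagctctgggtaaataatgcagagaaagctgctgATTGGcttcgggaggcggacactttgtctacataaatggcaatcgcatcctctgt
Slc6a3 (chr13:73536627-73536746, plus strand): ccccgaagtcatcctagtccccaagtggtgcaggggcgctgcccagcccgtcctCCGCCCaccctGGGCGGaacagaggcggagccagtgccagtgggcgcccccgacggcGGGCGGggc
Slc18a2 (chr19:59260758-59260877, plus strand): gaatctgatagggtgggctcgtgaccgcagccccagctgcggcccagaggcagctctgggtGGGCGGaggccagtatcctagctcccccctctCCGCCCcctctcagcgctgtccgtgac
Drd1, upstream start site (chr13:54055659-54055778, minus strand): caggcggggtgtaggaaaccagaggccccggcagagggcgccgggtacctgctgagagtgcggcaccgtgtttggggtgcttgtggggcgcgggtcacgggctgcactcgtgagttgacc
Drd2 (chr9:49340283-49340402, plus strand): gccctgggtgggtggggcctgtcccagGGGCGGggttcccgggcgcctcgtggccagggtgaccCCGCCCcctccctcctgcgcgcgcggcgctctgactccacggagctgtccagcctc

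The Th stretch holds a CRE, 45 to 38 bases before the start site. Of 32851 promoter windows of 250 bases before a start site, 1.55% hold that motif. Ddc has 2 start sites in the table. The upstream one is preceded by an NBRE on the opposite strand, 73 to 66 bases before it, which overlaps a match to the TATA box at 68 to 63 bases. An NBRE occurs in 1.34% of windows and a TATA box in 12.4%. Slc6a3 has 3 GC boxes, and Slc18a2 and Drd2 have 2 each. A GC box occurs in 32.7% of windows, and Maoa, whose stretch is not printed, has 1 at 46 to 41 bases. In the full 250 bases, beyond the printed stretches, Th has 1 at 220 to 215 bases and the other Drd1 start site has 1 at 133 to 128 bases. The downstream Ddc site is preceded by a CCAAT box, 55 to 51 bases before it, a motif in 33.8% of windows. The printed Drd1 stretch holds none of these motifs. These are matches of letters and do not show that a factor binds.

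No dopamine gene passed the test between control and deltamethrin. In edgeR's quasi-likelihood fit to 19529 genes, 0% had a Benjamini-Hochberg adjusted p-value under 0.05, and 0 of the 9 dopamine genes did. At an unadjusted p-value under 0.05 there was 1 dopamine gene of 9, Maob, against 4.37% of all genes. The 9 log2 fold changes (deltamethrin over control) ran from -0.16 for Drd2 to 0.18 for Maob, with a median of 0.032, against a median of 0.0014 over all genes tested. By role, 3 of 4 midbrain neuron genes, 1 of 3 receptors and 2 of 2 degrading enzymes had a positive value. Of all genes tested 50.5% did, the share to set beside each later count of signs as well. None of the 9 genes passed under any of the 11 other settings or in any of the 31 fits that left out 1 library.

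**Figure D1:**
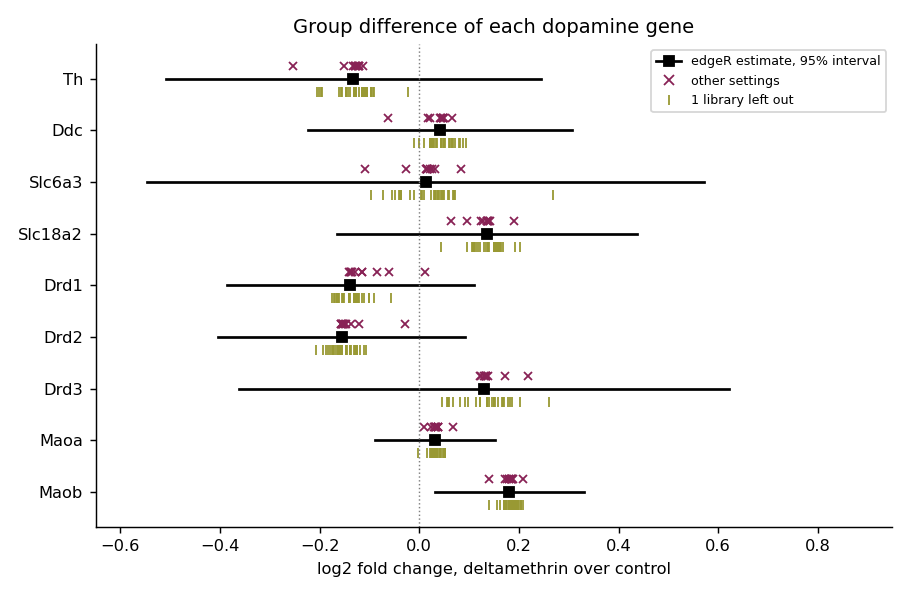
Log2 fold change of each dopamine gene, deltamethrin over control (x axis), from edgeR over 31 libraries, with its 95% interval (black), the estimates under other settings (crosses) and the estimates with 1 library left out (ticks). The interval of Maob lies above 0, from 0.032 to 0.33, and the other 8 include 0.

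Among the midbrain neuron genes, Th (ENSMUSG00000000214, chromosome 7, 142892752 to 142931128, minus strand) had a lowest, median and highest level of 1.49, 4.35 and 7.49 CPM in control, where CPM is counts per 1000000 counts of the library as scaled by edgeR's TMM factors. In deltamethrin these were 2.12, 3.40 and 7.14 CPM. All 18 deltamethrin libraries lay inside the control range and 12 of them lay below the control median. The controls averaged 4.10 ± 1.72 CPM (SD, n = 13), and the deltamethrin libraries averaged 3.79 ± 1.26 CPM (SD, n = 18). On the log2 scale the fold change was -0.13 ± 0.18 (SE; adjusted p = 0.872, edgeR), and its 95% interval spans a fold from 0.703 to 1.19. Without control replicate 9 it was -0.022.

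Ddc (ENSMUSG00000020182, chromosome 11, 11814101 to 11898144, minus strand) ran over 3.81, 6.66 and 10.3 CPM in control (lowest, median, highest) and over 4.16, 7.46 and 11.9 CPM in deltamethrin. The groups overlapped almost completely, with 1 deltamethrin library outside the control range. Its log2 fold change was 0.041 ± 0.13 (SE, adjusted p = 0.942 over all genes, edgeR; fold interval 0.856 to 1.24).

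Slc6a3 (ENSMUSG00000021609, chromosome 13, 73536747 to 73578672, plus strand) was the most uneven of the 9 within each group. It ran over 0.559, 2.08 and 6.37 CPM in control and over 0.683, 1.80 and 5.20 CPM in deltamethrin, from 8 to 233 counts per library. Control replicate 9 and deltamethrin replicate 1 were the highest, control replicates 1 and 2 and deltamethrin replicate 8 the lowest, and 0 of 18 deltamethrin libraries fell outside the control range. Its log2 fold change was 0.013 ± 0.27 (SE, adjusted p = 0.993 over all genes, edgeR). The interval of the fold, 0.685 to 1.49, is the widest of the midbrain neuron genes, and without control replicate 9 the estimate was 0.27.

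Slc18a2 (ENSMUSG00000025094, chromosome 19, 59260896 to 59296012, plus strand) ran over 3.07, 4.02 and 6.47 CPM in control and over 3.11, 3.80 and 9.45 CPM in deltamethrin. The highest value, in deltamethrin replicate 1, stood above the next, 6.66 CPM in deltamethrin replicate 6. The estimate on the log2 scale was 0.14 ± 0.15 (SE, adjusted p = 0.842 over all genes, edgeR; fold interval 0.892 to 1.35), and it was 0.045 without deltamethrin replicate 1.

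**Figure D2:**
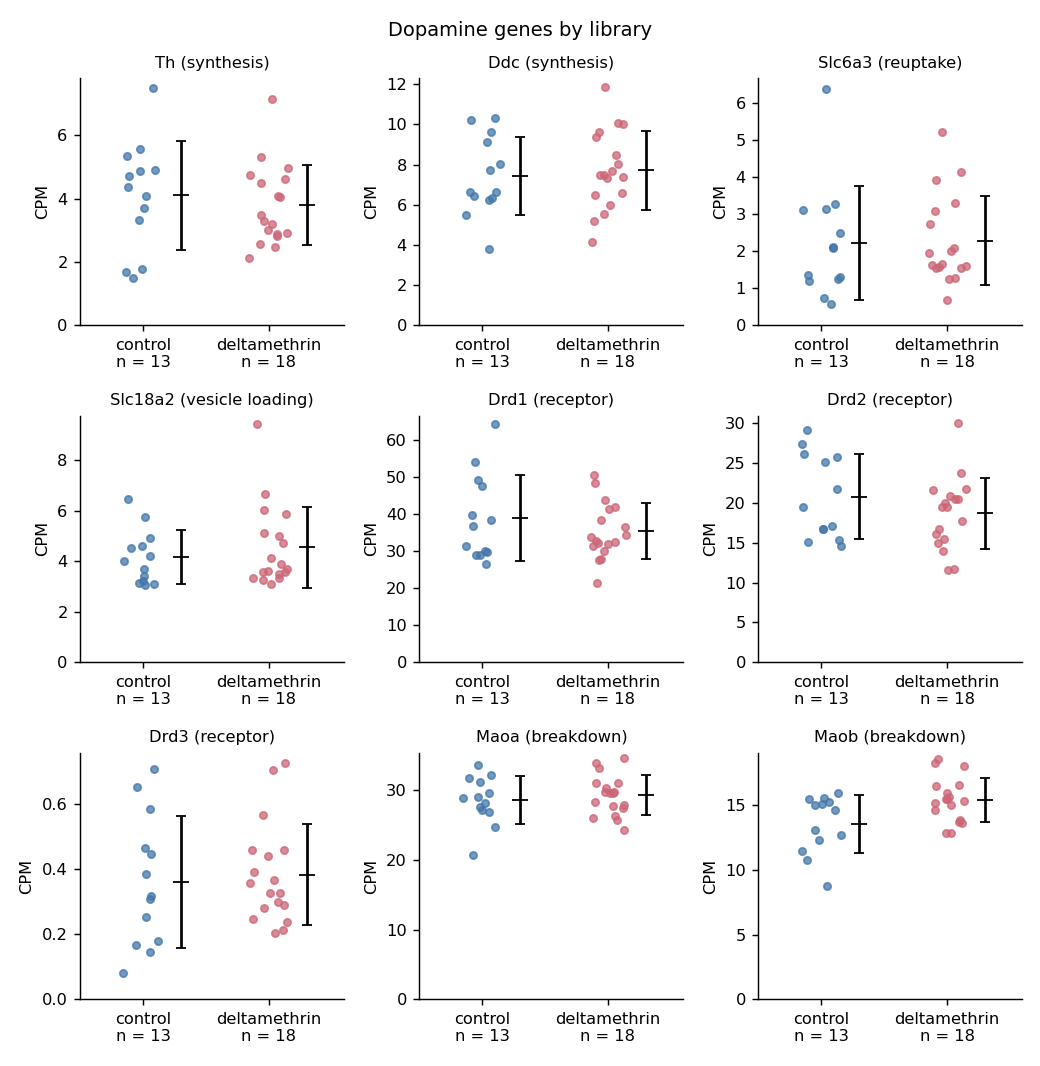
CPM of each dopamine gene in every library (y axis, from 0) by group, with the mean and SD beside the points. The groups overlap in all 9 panels; 6 of 18 deltamethrin libraries lie outside the control range for Maob, against 0 for Th and Slc6a3.

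The receptors Drd1 and Drd2 were both lower on average in deltamethrin, by less than the spread between libraries. Drd1 (ENSMUSG00000021478, chromosome 13, 54051183 to 54055705, minus strand) ran over 26.5, 36.8 and 64.4 CPM in control and over 21.4, 33.1 and 50.6 CPM in deltamethrin. Its log2 fold change was -0.14 ± 0.12 (SE, adjusted p = 0.823 over all genes, edgeR; fold interval 0.765 to 1.08). Control replicate 1 was the highest library of all, and without it the estimate was -0.057.

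Drd2 (ENSMUSG00000032259, chromosome 9, 49340627 to 49408177, plus strand) ran over 14.6, 19.5 and 29.2 CPM in control and over 11.6, 19.5 and 30.1 CPM in deltamethrin. The group medians were nearly the same and 9 of 18 deltamethrin libraries lay on each side of the control median. Deltamethrin over control gave -0.16 ± 0.12 on the log2 scale (SE, adjusted p = 0.817 over all genes, edgeR; fold interval 0.756 to 1.07). Without control replicate 3 it was -0.11, and without deltamethrin replicate 10 it was -0.21.

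Of the 14 tested marker genes of striatal projection neurons 12 had a negative fold change, 2 of them with an unadjusted p-value under 0.05 (Chrm4 and Gpr6, against 2.37% of all genes) and 0 after adjustment. The striatal score, the mean log2 CPM of the 14 genes, ran from 5.50 to 6.25 in control and from 5.24 to 6.34 in deltamethrin, a difference in means of -0.099 (two-sided permutation p = 0.287, adjusted 0.553 over 10 scores). With that score as a covariate the log2 fold change was 0.011 for Drd1 and -0.028 for Drd2, against -0.14 and -0.16 without it. The most abundant of these markers, the adenylyl cyclase Adcy5, had 365 ± 61.3 CPM in control and 362 ± 66.6 in deltamethrin (SD), and Ppp1r1b, the phosphoprotein DARPP-32 that relays dopamine signals, had 270 ± 56.1 and 234 ± 61.0 CPM. Tac1, the substance P precursor of the direct pathway, had 31.7 ± 10.2 and 29.5 ± 8.82 CPM. In the indirect pathway Penk had 126 ± 30.2 and 120 ± 32.3 CPM, and the adenosine receptor Adora2a 61.2 ± 13.6 and 54.9 ± 16.3 CPM. The balance of the pair, log2 Drd1 minus log2 Drd2, had a mean of 0.89 with an SD of 0.27 in control (n = 13) and of 0.92 with an SD of 0.21 in deltamethrin (n = 18).

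Drd3 (ENSMUSG00000022705, chromosome 16, 43754026 to 43822932, plus strand), a receptor of the D2 class known from the ventral striatum and islands of Calleja, was near the limit of detection, with 2 to 28 counts per library. It ran over 0.0798, 0.316 and 0.707 CPM in control and over 0.205, 0.342 and 0.724 CPM in deltamethrin. At its median of 11 counts, counting error alone gives a coefficient of variation of 30.2%. Its estimate was 0.13 ± 0.24 on the log2 scale (SE, adjusted p = 0.906 over all genes, edgeR), with an interval that spans a fold from 0.778 to 1.54. Without control replicate 1 it was 0.046, and without control replicate 3 it was 0.26.

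Of the degrading enzymes, Maob (ENSMUSG00000040147, chromosome X, 16709282 to 16817366, minus strand) had the largest difference among the 9 genes. It ran over 8.73, 14.6 and 15.9 CPM in control and over 12.8, 15.4 and 18.5 CPM in deltamethrin. The lowest deltamethrin library ranked 26th of 31, and all libraries below it were controls. Above the highest control lay 6 deltamethrin libraries, and 13 of 18 lay above the control median. The controls averaged 13.5 ± 2.22 CPM (SD, n = 13), and the deltamethrin libraries averaged 15.4 ± 1.72 CPM (SD, n = 18). The log2 fold change of 0.18 ± 0.073 (SE) had an unadjusted p of 0.0177 and an adjusted p of 0.813 over all genes by edgeR, so it did not pass. It ranked 227th by p-value. Without control replicate 2, the lowest library, it was 0.14 (unadjusted p = 0.0382), and it ran from 0.14 to 0.21 over the 31 fits that left out 1 library, with an unadjusted p-value under 0.05 in each. With the log2 mitochondrial rRNA share as a covariate the value was 0.17 ± 0.053 (adjusted p = 0.480 over all genes, edgeR). Without scaling factors the unadjusted p was 0.0600.

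Maoa (ENSMUSG00000025037, chromosome X, 16619698 to 16687818, plus strand), the neighbour of Maob on the X chromosome, was the steadiest of the 9. It ran over 20.8, 29.0 and 33.6 CPM in control and over 24.3, 29.6 and 34.7 CPM in deltamethrin, with control replicate 2 again the lowest. Its log2 fold change was 0.032 ± 0.059 (SE, adjusted p = 0.909 over all genes, edgeR), and the interval of its fold, 0.940 to 1.11, is the narrowest of the set. In control, log2 Maob minus log2 Maoa had a mean of -1.09 with an SD of 0.18 (n = 13), and in deltamethrin a mean of -0.93 with an SD of 0.15 (n = 18).

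All 8 tested astrocyte markers, which include the glutamate transporters Slc1a2 and Slc1a3, had a positive fold change beside Maob, though none reached an unadjusted p-value of 0.05. Slc1a2 had 1390 ± 324 CPM in control and 1682 ± 845 in deltamethrin (SD), and Slc1a3 had 235 ± 38.7 and 273 ± 67.9 CPM. The astrocyte score ran from 6.63 to 7.42 in control and from 6.82 to 7.78 in deltamethrin, a difference of 0.12 in the mean log2 CPM (two-sided permutation p = 0.215, adjusted 0.553 over 10 scores). Its part in the Maob difference was not tested.

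No other gene of the pathway passed the test. The 6 genes for tetrahydrobiopterin, the cofactor of Th, all had a negative fold change (median log2 fold change -0.058, from -0.12 for Gchfr to -0.043 for Gch1), with 0 at an unadjusted p-value under 0.05. The most abundant of them, Qdpr, which recycles the cofactor, had 175 ± 24.9 CPM in the 13 controls and 168 ± 26.9 CPM in the 18 exposed samples (SD), and Spr, which completes its synthesis, had 30.6 ± 4.02 and 29.6 ± 3.39 CPM. Akr1a1, an aldehyde reductase, had 353 ± 42.6 and 321 ± 54.4 CPM, or -0.13 ± 0.081 on the log2 scale (SE, adjusted p = 0.813 over all genes, edgeR). The other receptors Drd5 (1.88 ± 0.330 and 1.80 ± 0.398 CPM) and Drd4 (0.447 ± 0.354 and 0.391 ± 0.171 CPM) were low in both groups.

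Of 11 markers of dopamine neuron identity that are not among the 9 genes 8 passed the count filter, while Pitx3, Foxa1 and Foxa2, which are among the defining factors of these neurons, did not, with at most 20 counts in any library. Of the 8, 6 had a positive and 2 a negative fold change, 0 with an unadjusted p-value under 0.05. Nr4a2, the nuclear receptor required to form dopamine neurons and also expressed in cortex, had means of 22.4 ± 5.46 CPM (control) and 23.0 ± 4.45 CPM (deltamethrin), and Ret, a receptor for glial cell line-derived neurotrophic factor, had 8.80 ± 4.02 and 10.4 ± 4.84 CPM. The rest of the 8 were low. Slc10a4 averaged 2.26 CPM over the 31 libraries, and Chrna6, Chrnb3, Lmx1b, En1 and Lmx1a from 0.513 to 0.736 CPM. En1 had 0 counts in its lowest library. The midbrain identity score, the mean of all 8, ran from -0.35 to 1.37 in control and from 0.21 to 1.47 in deltamethrin (difference 0.18, two-sided permutation p = 0.273, adjusted 0.553 over 10 scores). With this score as a covariate the log2 fold change of Th was -0.25 ± 0.13 (SE, unadjusted p = 0.0537, adjusted 0.899 over all genes, edgeR), against -0.13 without it.

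Noradrenaline and serotonin neuron markers were too low for most to be tested. Dbh passed the filter and Slc6a2 and Phox2a did not, and of the serotonin genes Tph2 passed and Slc6a4 and Fev did not. Dbh, which makes noradrenaline from dopamine, had means of 0.591 ± 0.600 CPM (control) and 0.524 ± 0.326 CPM (deltamethrin). Tph2, the brain enzyme of serotonin synthesis, had 1.18 ± 0.318 and 1.43 ± 1.17 CPM. Over all 10 scores, 0 differed between the groups after adjustment, and the smallest unadjusted permutation p was 0.215.

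Compared per length, as CPM per kilobase of exon, Drd1, Drd2 and the degrading enzymes stood above the genes of the dopamine neuron itself, and Drd3 stood below all of them. Drd1 had 10.1 ± 2.61 CPM per kilobase, Drd2 7.69 ± 1.91, Maoa 6.96 ± 0.736 and Maob 5.24 ± 0.762 (SD, n = 31 for each). Then came Ddc at 1.70 ± 0.433, Th at 1.66 ± 0.615, Slc18a2 at 0.840 ± 0.270, Slc6a3 at 0.654 ± 0.385 and Drd3 at 0.218 ± 0.101. Between neighbours in this order, Drd1 was above Drd2 in 30 of 31 libraries, Maoa above Maob in 31 and Maob above Ddc in 31. Drd2 and Maoa (20 of 31) and Ddc and Th (18 of 31) were not separated beyond their spread, and Slc18a2 was above Slc6a3 in 22 of 31. The lengths are those of all exons in GENCODE M21, so a gene whose brain transcript uses fewer exons is understated.

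The 9 genes varied between libraries to very different degrees. The highest library exceeded the lowest 11.4-fold for Slc6a3, 9.07-fold for Drd3, 5.04-fold for Th, 3.12-fold for Ddc, 3.07-fold for Slc18a2, 3.01-fold for Drd1, 2.58-fold for Drd2, 2.12-fold for Maob and 1.67-fold for Maoa. The biological coefficient of variation fitted by edgeR, the spread beyond counting error, was 51.0% for Slc6a3 and 34.5% for Th, more than that of 98.0% and 89.9% of all genes tested. It was 24.1% for Ddc, 27.0% for Slc18a2, 23.3% for Drd1 and 23.1% for Drd2. The enzymes sat at the other end, with 13.2% for Maob and 11.3% for Maoa, the latter above only 10.7% of genes.

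Across the 31 libraries Th, Ddc and Slc6a3 rose and fell together. The Pearson correlation of log2 CPM was 0.807 for Th and Ddc (Spearman rho = 0.790), 0.772 for Th and Slc6a3 (rho = 0.668) and 0.788 for Ddc and Slc6a3 (rho = 0.781). Each r had a two-sided permutation p of 1e-05, the smallest the permutations give, and an adjusted p of 9e-05 over the 36 pairs of the 9 genes. Without the 2 libraries farthest from the median of the second gene, r was 0.773, 0.691 and 0.782. It held within control (0.805, 0.775 and 0.819) and within deltamethrin (0.856, 0.792 and 0.764). Control replicate 9 and deltamethrin replicate 1 were the 2 highest libraries for both Th and Slc6a3.

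Slc18a2 did not follow the other 3 genes at an adjusted p-value under 0.05. Its r was 0.0371 with Th (rho = -0.0311, adjusted permutation p = 0.882), 0.171 with Ddc (rho = 0.219, 0.558) and 0.361 with Slc6a3 (rho = 0.335, 0.146). Without scaling factors 2 of these passed, at r = 0.412 with Ddc (adjusted permutation p = 0.0425) and 0.532 with Slc6a3 (adjusted permutation p = 0.00496). Control replicate 7 had 6.47 CPM of Slc18a2, the highest control value, and 1.78 CPM of Th, among the lowest. Within control the r of Slc18a2 with Th was -0.300 and within deltamethrin 0.353. The 1 marker score whose Pearson r with Slc18a2 passed was the serotonin score, here the gene Tph2 (r = 0.497, adjusted permutation p = 0.0214 over 99 relations; rho = 0.292, adjusted 0.229). By rho the pituitary score was higher, at 0.382 (adjusted permutation p = 0.112). Without the 2 libraries farthest from the median of Tph2, deltamethrin replicates 1 and 11, the r of Slc18a2 with Tph2 was 0.290. Without deltamethrin replicate 1 alone it was 0.245 (adjusted permutation p = 0.354), so the call depends on that library. Slc6a3 correlated with Tph2 as well, at r = 0.461 (adjusted permutation p = 0.03) and rho = 0.505 (adjusted 0.0208). Its r was 0.297 without the same 2 farthest libraries. The Slc6a3 call ended without deltamethrin replicate 1 (r = 0.350) or 11 (0.435) or control replicate 1 (0.436). With Maoa, Slc18a2 had an r of 0.437 (adjusted permutation p = 0.0586) and a rho of 0.568 (adjusted 0.00744).

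**Figure D3:**
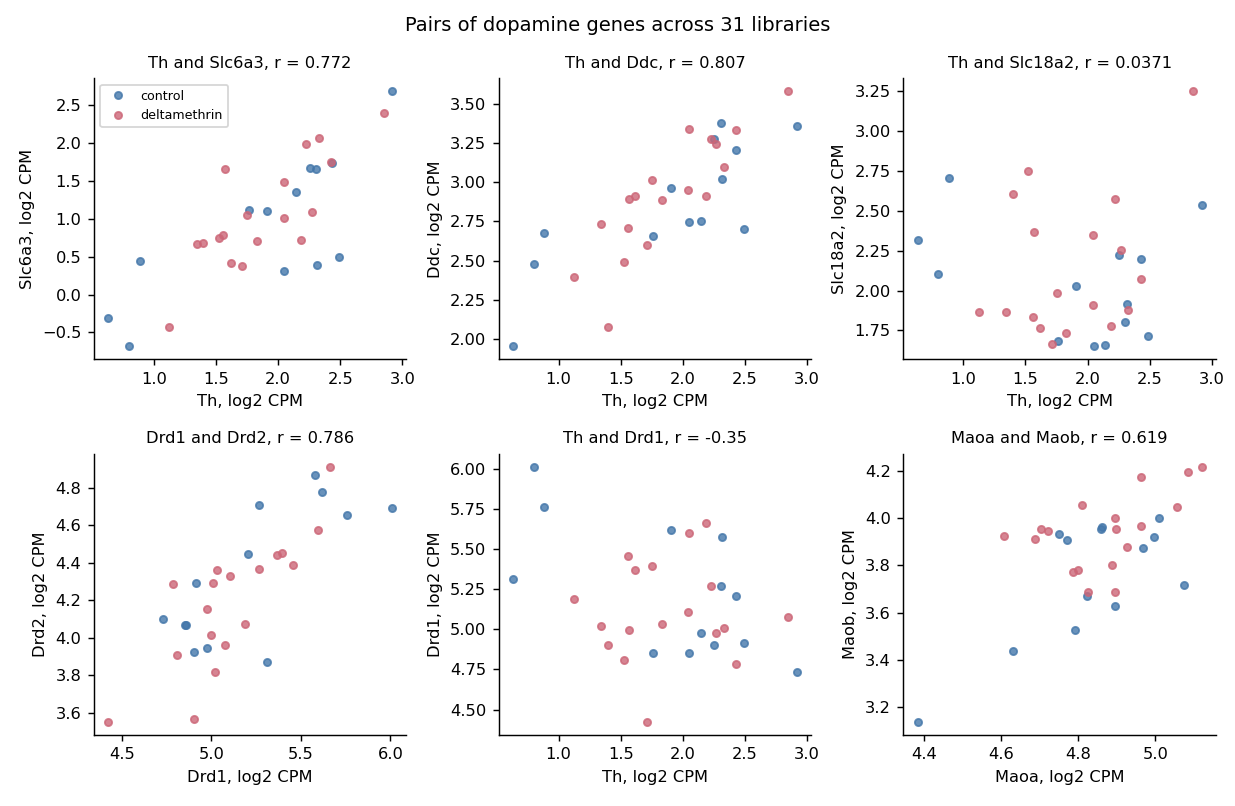
Log2 CPM of 6 pairs of dopamine genes in the 31 libraries (control blue, deltamethrin red), with Pearson r over all libraries. Th rises with Slc6a3 (0.772) and Ddc (0.807), Drd1 with Drd2 (0.786) and Maoa with Maob (0.619), while Th and Slc18a2 form a cloud (0.0371).

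The 3 genes correlated with the midbrain identity score, which holds none of them, and with several other scores. The r with that score was 0.848 for Slc6a3 (rho = 0.829), 0.756 for Th (rho = 0.646) and 0.755 for Ddc (rho = 0.725), each with an adjusted permutation p of 0.000124 over 99 relations of a dopamine gene with a score or with the mitochondrial rRNA share. Without the 2 farthest libraries r was 0.789, 0.638 and 0.692. For Slc6a3 it was 0.937 within control and 0.750 within deltamethrin. Slc18a2 had 0.332 (rho = 0.296, adjusted permutation p = 0.150). With the noradrenaline neuron score r was 0.789 for Slc6a3 (rho = 0.750), 0.737 for Th (rho = 0.630) and 0.667 for Ddc (rho = 0.669), with adjusted permutation p from 0.000124 to 0.00033. The 3 genes also correlated with the hypothalamus score, at 0.488 for Slc6a3, 0.611 for Th and 0.484 for Ddc (rho = 0.353, 0.434 and 0.409; adjusted permutation p of r from 0.00136 to 0.0214, and of rho from 0.057 to 0.143), and the call ended for Slc6a3 without control replicate 1 (r = 0.371) and for Ddc without control replicate 2 (r = 0.412). With the hypothalamus score r for Slc6a3, Th and Ddc was 0.631, 0.892 and 0.680 within control. Within deltamethrin it was 0.271, 0.183 and 0.267. With the mitochondrial rRNA share removed it was 0.225, 0.350 and 0.142 (adjusted permutation p from 0.209 to 0.666). The 3 genes correlated with the astrocyte score as well, at 0.627 for Slc6a3, 0.603 for Th and 0.638 for Ddc (rho = 0.588, 0.620 and 0.645; adjusted permutation p from 0.00113 to 0.00203). Whether an r with 1 score differs from that with another was not tested.

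Th and Ddc also correlated with olfactory bulb markers (Cdhr1, Doc2g and Eomes), a region that has dopamine neurons of its own. The r was 0.657 for Th (rho = 0.633, adjusted permutation p = 0.000381) and 0.482 for Ddc (rho = 0.467, adjusted 0.0219), while Slc6a3 had 0.342 (rho = 0.307, adjusted 0.133). For Ddc the call ended without deltamethrin replicate 1 (r = 0.432, adjusted permutation p = 0.0561) or 4 (r = 0.396, adjusted 0.0814). With the mitochondrial rRNA share removed both calls ended, at 0.423 for Th (adjusted permutation p = 0.109) and 0.127 for Ddc (adjusted 0.697). Whether these 3 values differ from each other was not tested.

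Drd1 and Drd2 formed a second pair. Their r was 0.786 (rho = 0.763, adjusted permutation p = 9e-05 over the 36 pairs), 0.757 with the 2 farthest libraries left out, and 0.757 and 0.810 among the control and the deltamethrin libraries alone. Both correlated with the striatal score, with r = 0.923 for Drd1 (rho = 0.890) and 0.916 for Drd2 (rho = 0.909), each with an adjusted permutation p of 0.000124. Within control these were 0.935 and 0.888, and within deltamethrin 0.926 and 0.932. Drd3 followed neither, at -0.286 with Drd1 (rho = -0.182, adjusted permutation p = 0.253) and -0.232 with Drd2 (rho = -0.197, adjusted 0.398).

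Of the 12 pairs of a receptor and a midbrain neuron gene 0 had an adjusted p-value under 0.05, 5 were negative, and r ran from -0.350 (Th and Drd1) to 0.356 (Ddc and Drd2). This changed with the processing. Ddc and Drd2 passed with the rRNA share removed (r = 0.4996, adjusted permutation p = 0.0289) and without scaling factors (0.578, adjusted permutation p = 0.00262), and Th with Drd2 (0.406) and with Drd3 (0.408) passed without scaling factors (adjusted permutation p = 0.0425 for both). Drd1 fell as cerebellar markers rose (r = -0.585, rho = -0.481, adjusted permutation p = 0.00287), with r = -0.469 when the 2 farthest libraries were left out, and -0.775 and -0.352 among the control and the deltamethrin libraries alone. Without control replicate 1, the library with the most Drd1, r was -0.438 (adjusted permutation p = 0.0512). Drd1 fell as the hypothalamus score rose as well, at r = -0.558 (adjusted permutation p = 0.00639) and rho = -0.462 (adjusted 0.0376). With that score r was -0.342 when the 2 farthest libraries were left out. Without control replicate 1 it was -0.436 (adjusted permutation p = 0.0512), and with the rRNA share removed -0.476 (adjusted permutation p = 0.0705).

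**Figure D4:**
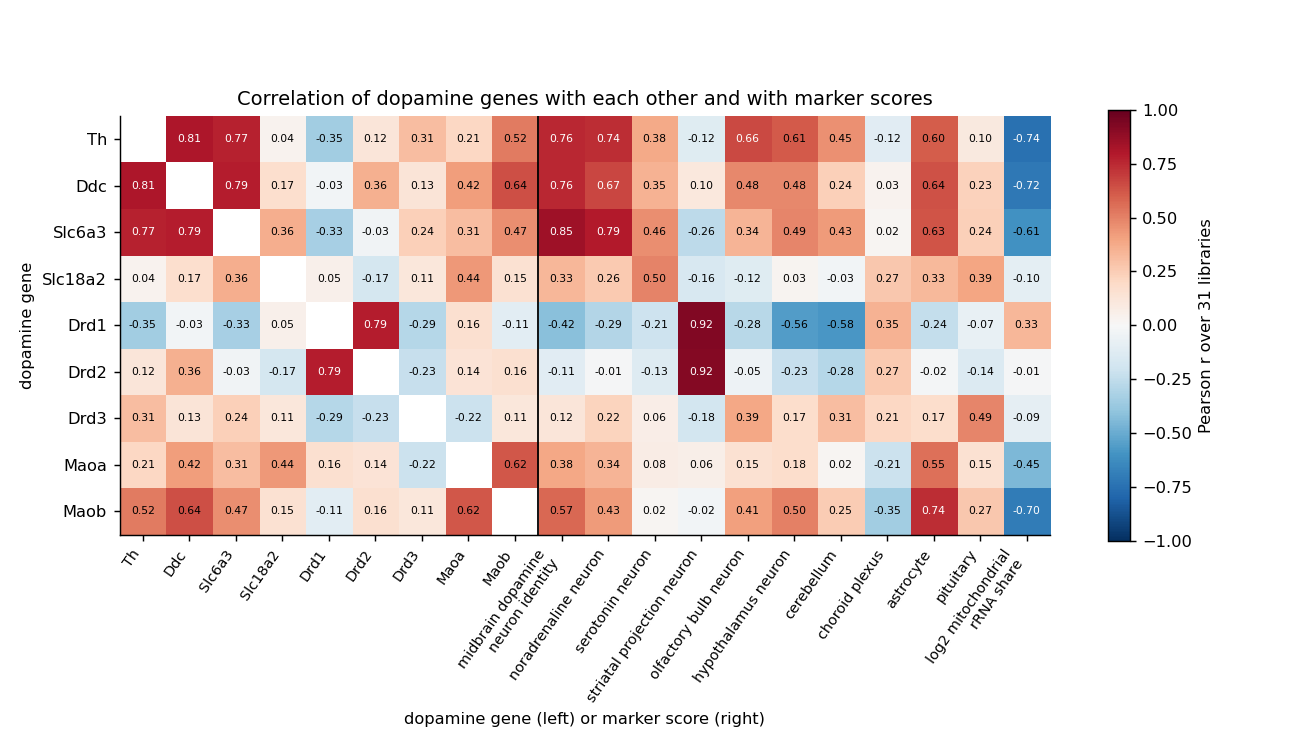
Pearson r over 31 libraries of each dopamine gene (rows) with the other dopamine genes (left of the line) and with marker scores and the mitochondrial rRNA share (right). Th, Ddc and Slc6a3 form 1 block (0.772 to 0.807) that extends to the midbrain identity (0.755 to 0.848), noradrenaline (0.667 to 0.789), astrocyte (0.603 to 0.638) and hypothalamus (0.484 to 0.611) scores, and Drd1 and Drd2 form another (0.786) that extends to the striatal score.

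Maoa and Maob correlated at r = 0.619 (rho = 0.454, adjusted permutation p = 0.00228 for r and 0.0538 for rho). Without the 2 farthest libraries r was 0.332. Without control replicate 2 alone it was 0.433 with an adjusted permutation p of 0.0749, so the call depends on that library. Within control r was 0.73, and within deltamethrin, which does not hold that library, it was 0.51. Maob followed the astrocyte score at 0.736 (rho = 0.695, adjusted permutation p = 0.000124), with 0.671 when the 2 farthest libraries were left out, and 0.832 and 0.678 among the control and the deltamethrin libraries alone. Maoa followed it at 0.553 (rho = 0.434, adjusted p = 0.00585 for r and 0.057 for rho). With Tph2, Maob had an r of 0.0183 (rho = -0.0887, adjusted permutation p = 0.939). Maob also correlated with the midbrain identity score at 0.57 (rho = 0.52, adjusted permutation p = 0.00426). With the hypothalamus score r was 0.502 (rho = 0.465, adjusted 0.0175). With the noradrenaline score it was 0.428 (rho = 0.356, adjusted 0.0474), a call kept in 13 of 31 runs without 1 library. With Slc6a3, Maob had 0.47 (rho = 0.44, adjusted permutation p = 0.0368 for r and 0.0538 for rho).

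The mitochondrial rRNA share moved with 5 of the 9 genes. Its log2 value had an r of -0.745 with Th (rho = -0.688), -0.717 with Ddc (rho = -0.678), -0.701 with Maob (rho = -0.666), -0.607 with Slc6a3 (rho = -0.547) and -0.450 with Maoa (rho = -0.358). The adjusted permutation p of r ran from 0.000198 to 0.0355. The value for Maoa lost its call without control replicate 2 (r = -0.245), 5 or 8 or deltamethrin replicate 1 or 2. The receptors and Slc18a2 showed no such relation at an adjusted p-value under 0.05 (r from -0.0988 for Slc18a2 to 0.331 for Drd1). When the share was removed from each gene and score by regression, an alternative chosen after seeing the data, Th and Ddc kept r = 0.587, Th and Slc6a3 0.603, Ddc and Slc6a3 0.637, Drd1 and Drd2 0.837 and Maoa and Maob 0.478 (adjusted permutation p = 0.0419), each still called, and Ddc and Drd2 joined them. Of the 90 relations with scores 6 passed: Slc6a3 with midbrain identity (0.749) and noradrenaline (0.676), Th with noradrenaline (0.562, adjusted permutation p = 0.0182), Drd1 and Drd2 with the striatal score (0.921 and 0.947), and Drd1 with cerebellum (-0.524). Under the same step Maob and the astrocyte score fell to 0.369 (adjusted permutation p = 0.172), Ddc and Maob from 0.643 to 0.284 (adjusted permutation p = 0.338), and Th and Maob from 0.522 to 0.00064 (adjusted permutation p = 0.997). The r of Th and Maob was already 0.375 without control replicate 2 alone (adjusted permutation p = 0.146). The part of the rRNA share in these relations was not tested further. Th and Ddc with the midbrain identity score went to 0.431 and 0.459 (adjusted permutation p = 0.107 and 0.0749), and Ddc with the noradrenaline score to 0.443 (adjusted permutation p = 0.0958). With the astrocyte score r became -0.0957 for Th (adjusted permutation p = 0.797), 0.0698 for Ddc (adjusted 0.814), 0.264 for Slc6a3 (adjusted 0.402) and 0.363 for Maoa (adjusted 0.181).

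**Figure D5:**
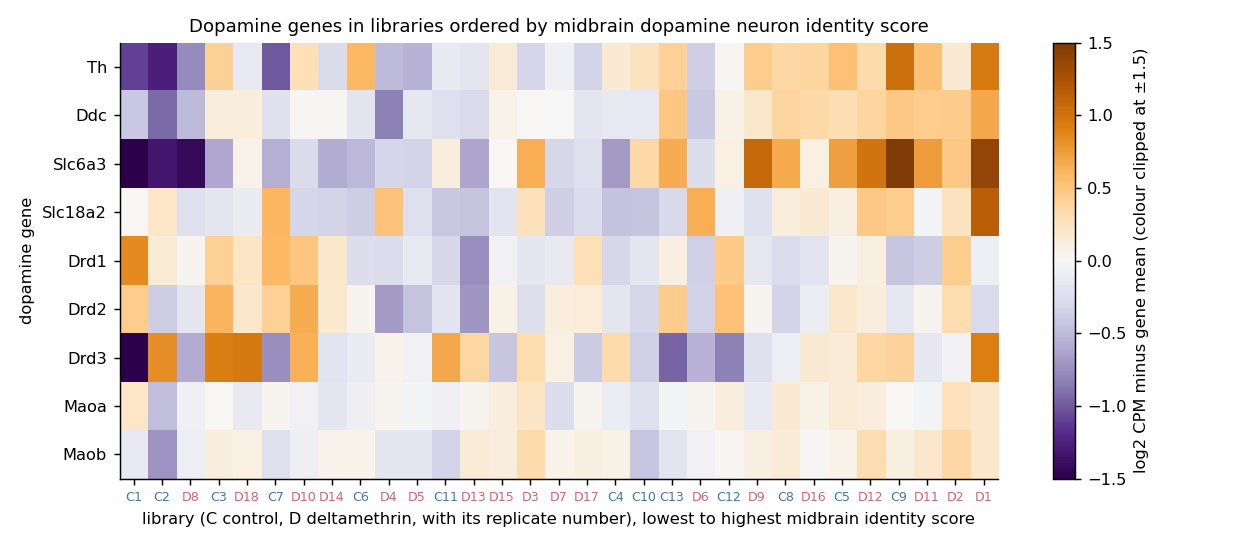
Log2 CPM of each dopamine gene minus its mean over the 31 libraries (colour), with libraries ordered from the lowest to the highest midbrain identity score. Th, Ddc and Slc6a3 go from low to high along the axis, Maoa and Maob change little (colour is clipped at 1.5 on either side), and libraries of the 2 groups are mixed along it.

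The genes whose pattern over the 31 libraries was most like each dopamine gene were found by Pearson r of log2 CPM centred within each group, over 19515 other gene symbols. For Drd1 they included Sh3rf2 (0.917) and Rarb (0.910), and for Drd2 they were Pde1b (0.951), Cd4 (0.898) and Penk (0.898). Penk encodes the enkephalin precursor of the indirect pathway and Pde1b a phosphodiesterase abundant in striatum. Drd2 was the 20th gene in the order of likeness to Drd1, and Drd1 the 18th in that of Drd2.

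For Slc6a3 the nearest genes were Lncenc1 (0.848), Ebf2 (0.833) and Aldh1a1 (0.829), the last an aldehyde dehydrogenase of a subset of midbrain dopamine neurons. Aldh1a1 averaged 52.1 CPM over the 31 libraries, against 2.26 CPM for Slc6a3, and which cells its RNA came from was not tested. In the order of likeness to Slc6a3, Ddc was the 24th and Th the 30th gene. For Th they were Llgl1 (0.904), Ddr1 (0.895) and Lgi3 (0.894), and for Ddc they were Pgm1 (0.887), Ache (0.885) and Mag (0.879), a list that includes Mag, a myelin gene, and Ache, the enzyme that breaks down acetylcholine. Ddc was the 119th gene for Th, and 174 genes had an r above 0.8 with Th, so the likeness of these 2 genes is shared by many others.

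For Slc18a2 the nearest genes were Htr2c (0.779), Fstl5 (0.767) and Sos1 (0.765), with Th at position 8142. For Maoa they were Vma21 (0.864), Rab10 (0.863) and Bzw1 (0.863), for Maob Cpe (0.919), Dync1li2 (0.917) and Tmcc3 (0.907), with 459 genes above 0.8 for Maob. For Drd3 the highest was Isg15, at 0.600, and 0 genes passed 0.8. These values are descriptions over libraries that share their composition, and carry no test.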

How the data were processed

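Total RNA of 31 mouse brain samples was sequenced on an Illumina NovaSeq, per the labels' protocols. The authors deposited 1 table of unnormalized read counts by Ensembl gene. The submitters' processing notes name Trimmomatic, HISAT2, SAMtools and MultiQC and the build GRCm38. How reads were counted (tool, gene models, strand) is not given in the sources used here. Without strand, reads of Ddc and Slc18a2 cannot be told apart from those of genes that overlap them on the other strand. Drd3 is overlapped by a gene on its own strand. Each overlapping gene was given at most 52 counts in all libraries together, which does not bound the reads it may share. Columns were assigned to samples through the titles, and groups come from the agent label; replicate numbers follow sample order.

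Genes were kept by filterByExpr in edgeR 4.0.16 (R 4.3.3; minimum count 10, minimum total 15) and scaled by TMM. Groups were compared with its quasi-likelihood test (robust fit, group as the only term) and Benjamini-Hochberg adjustment over the 19529 genes. SEs were derived from the fold change and its F statistic, and 95% intervals from the SE and residual degrees of freedom. A prior count of 2 was added for log2 CPM. Gene models, positions and exon lengths are from GENCODE M21 (99.1% of IDs found), promoters from RefSeq on GRCm38.p6 (8 of 9 genes). A marker score is the mean log2 CPM of the list genes that passed the filter. Scores and correlations were tested by two-sided permutation with 100000 resamples, with adjustment over the 10 scores, the 36 pairs or the 99 other relations. The fit was tested on simulated counts.

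Alternatives were scaling by RLE, by upper quartile or not at all, 2 other filters on counts, DESeq2 1.42.0, limma voom (limma 3.58.1), a fit that is not robust, 3 covariates, a prior count of 0.5 and leaving out each sample. Named were all 9 genes, of each other list the 2 most abundant genes and any with an unadjusted p-value under 0.05, and the 3 genes nearest in pattern to each of the 9; further names were picked with values in view. The members and lists were chosen with earlier results of these data known. Of the 77 other list genes 65 were tested and 1, Gpr52, was not analysed here. Some genes that the rule names are not reported here. Protein kinase measurements of the study were not used here.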

Additional observations from a re-analysis of the deposited data

How the results depend on the processing

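Under all 11 alternatives and in all 31 fits without 1 library (0 to 0), 0 dopamine genes passed at an adjusted 0.05. Some signs changed. With the midbrain identity score as a covariate Ddc was -0.062 and Slc6a3 -0.11, and with the striatal score Slc6a3 was -0.026 and Drd1 0.011. Across the fits without 1 library Ddc ran from -0.011 to 0.093, Slc6a3 from -0.096 to 0.27 and Maoa from -0.0021 to 0.052. Drd3 had no value under the filter of a mean count of at least 50, which removed it. Of the 36 pairs of dopamine genes 8 correlated at an adjusted p-value under 0.05, against 20 without scaling factors, 6 with the mitochondrial rRNA share removed and 7 to 11 without 1 library (7 without control replicate 2). Of the 99 relations with scores and the rRNA share 32 passed, against 49 without scaling factors, 6 with the rRNA share removed (of 90, since the share itself drops out) and 28 to 34 without 1 library. The cause of these shifts was not tested. The r of Th with Slc18a2 was -0.0549 with the rRNA share removed and ran from -0.168 to 0.147 without 1 library. The olfactory bulb score difference was 0.036 without scaling factors and ran from -0.14 to 0.064 without 1 library, and that of the serotonin score from -0.064 to 0.13. No paired analysis was possible because numbers given in sample order pair nothing. Depth limits Drd3, with a median of 11 counts, most noradrenaline and serotonin markers and several midbrain identity markers.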

Other observations

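Other markers of regions and cell types that the homogenate can hold were read beside the dopamine genes. Choroid plexus markers were lower in 5 of 5 genes, with Folr1 at -0.49 ± 0.20 (SE) and Ttr at -0.46 ± 0.21 on the log2 scale (unadjusted p = 0.0163 and 0.0360, adjusted 0.813 over all genes for both, edgeR). The choroid plexus score differed by -0.21 (two-sided permutation p = 0.270, adjusted 0.553). Cerebellar markers were higher in 5 of 5 genes, from 0.015 for Pcp2 to 0.34 for Cbln3, and the score by 0.25 (permutation p = 0.332, adjusted 0.553). All 5 hypothalamic genes were higher, from 0.048 for Agrp to 0.22 for Hcrt, and the score by 0.33 (permutation p = 0.221, adjusted 0.553). Among the most abundant genes of these lists, log2 fold changes were 0.26 ± 0.21 for Cbln1, -0.073 ± 0.18 for Kl, 0.20 ± 0.25 for Pmch, 0.019 ± 0.18 for the olfactory bulb gene Cdhr1 and -0.34 ± 0.20 for Doc2g (SE). Of the pituitary genes Gh and Tshb passed the filter, and Gh had from 2 to 228 counts per library. Drd3 correlated with that score (r = 0.485, rho = 0.529, adjusted permutation p = 0.0214 and 0.0141), from at most 28 counts of Drd3 per library. Without deltamethrin replicate 18 that r was 0.406 (adjusted permutation p = 0.0728).

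The direct pathway gene Chrm4, a muscarinic receptor, had 17.3 ± 2.63 CPM (SD, n = 13) in control and 15.3 ± 1.97 CPM (SD, n = 18) in deltamethrin, or -0.18 ± 0.073 on the log2 scale (SE, unadjusted p = 0.0177, adjusted 0.813, edgeR). Gpr6, a receptor of indirect pathway neurons, had 13.4 ± 3.61 and 10.9 ± 2.69 CPM, or -0.30 ± 0.13 on the log2 scale (SE, unadjusted p = 0.0218, adjusted 0.813, edgeR), with 15 of 18 deltamethrin libraries below the control median. Pdyn, the dynorphin precursor of direct pathway neurons, went the other way, from 16.3 ± 3.45 to 18.4 ± 3.21 CPM (log2 fold change 0.16 ± 0.096, adjusted p = 0.813, edgeR).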
